A study of Mus musculus with 79 samples.

Results

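The genes described are 38 markers of brain cells other than neurons: 12 of astrocytes, 9 of oligodendrocytes, 2 of oligodendrocyte precursors, 8 of microglia, 5 of endothelium, 1 of mural cells and 1 of the choroid plexus. They were listed by name as genes known to mark these cells, not by their values, and all 38 were present among the 25899 genes of the deposited table. The table gives CPM, the reads of a gene scaled to a common library total. The question put to them was how much of each marker is found in libraries made from neurons, and whether the markers of a class vary together from library to library.

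The study used bacTRAP, in which a bacterial artificial chromosome (BAC) transgene places L10a, a ribosomal protein tagged with eGFP (an enhanced green fluorescent protein), under the promoter of a chosen gene. Tagged ribosomes are pulled from a tissue homogenate with antibodies against the fluorescent protein, and the mRNA they carry is sequenced. All 79 libraries came from C57BL/6J mice heterozygous for a transgene, and each pooled the tissue of 3 mice, with both sexes in the pool wherever the labels give every mouse's sex. Ages are not in the labels.

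The 5 groups were set by the promoter and the region. With the dopamine D1a receptor promoter there were 15 libraries of dorsal striatum, 15 of ventral striatum (punched as nucleus accumbens) and 19 of prefrontal cortex. With the D2 receptor promoter there were 16 libraries of dorsal striatum and 14 of ventral striatum. These are called D1 dorsal, D1 ventral, D1 prefrontal, D2 dorsal and D2 ventral libraries below. The promoter decides which cells carry tagged ribosomes, and it differs between the D1 and D2 groups, so that receptor and transgene cannot be told apart. No group of untagged tissue or of total RNA was analysed here. The labels name pools but not their independence across regions, so p-values measure the spread between these libraries.

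Astrocytes take up glutamate and potassium around synapses, are joined by gap junctions and line blood vessels with endfeet rich in water channels. Oligodendrocytes wrap axons in myelin and arise from precursors, microglia are the resident macrophages, and endothelial and mural cells form the vessels. The choroid plexus lies in the ventricles and secretes cerebrospinal fluid together with transthyretin, a carrier of thyroid hormone. Myelin transcripts, and some astrocyte transcripts, are carried into cell processes and translated there, so that tissue homogenates hold them in the neuropil as well as in cell bodies.

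Depth ran from 7.35 to 30.8 M (mega) reads in listed genes per library, with a median of 17.5 M. A single read was worth 0.0124 to 0.0466 CPM. The labelled receptor genes matched their groups: Drd1a had medians of 232 and 156 CPM in the D1 dorsal and D1 ventral libraries against 12.1 and 15.1 CPM in the D2 dorsal and D2 ventral libraries, and Drd2 had medians of 1146 and 625 CPM in the D2 libraries against 5.53 and 7.98 CPM in the D1 libraries. In the D1 prefrontal libraries Drd1a had a median of 16.7 CPM, near that of the D2 striatal libraries. Library names begin with 1 of 4 letter codes (EM, OdP, BdP and JAG) whose meaning is not stated, and they were unevenly spread. EM began the names of 11 of 15 D1 dorsal, 11 of 15 D1 ventral and 15 of 19 D1 prefrontal libraries but of 8 of 16 D2 dorsal and 8 of 14 D2 ventral libraries, while OdP began 8 D2 dorsal, 5 D2 ventral and 1 D1 ventral name. Where a call of a named gene was lost in EM libraries alone, or a class's count of calls moved by over 1.5 times, the EM values follow the result.

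The markers were a small share of the reads. All 38 together held on average 0.0575% of the reads in genes of the D1 dorsal libraries, 0.0555% in D2 dorsal, 0.0430% in D1 ventral, 0.0493% in D2 ventral and 0.143% in D1 prefrontal. The mean was at least 1 CPM for 14 members in D1 dorsal, 19 in D2 dorsal, 12 in D1 ventral, 19 in D2 ventral and 21 in D1 prefrontal libraries. Counted per kilobase of exon, the median astrocyte member had 0.282, 0.251, 0.189, 0.308 and 1.33 CPM per kilobase in the D1 dorsal, D2 dorsal, D1 ventral, D2 ventral and D1 prefrontal libraries. The median oligodendrocyte member had 0.473, 1.02, 0.338, 0.900 and 0.600 CPM per kilobase in the same order. On the same scale, the median of 9 pan-neuronal genes (such as Snap25, a synaptic vesicle fusion protein) was 44.7, 35.8, 41.9, 37.6 and 51.5 CPM per kilobase. The pan-neuronal median thus lay above those of both macroglial classes in all 5 groups, although the ranges of single genes overlapped except for oligodendrocyte members in prefrontal libraries. Whether the markers' reads came from other cells' RNA or from the tagged cells was not tested. In such pooled tissue, fewer cells of a type and less RNA per cell cannot be told apart.

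**Figure D1:**
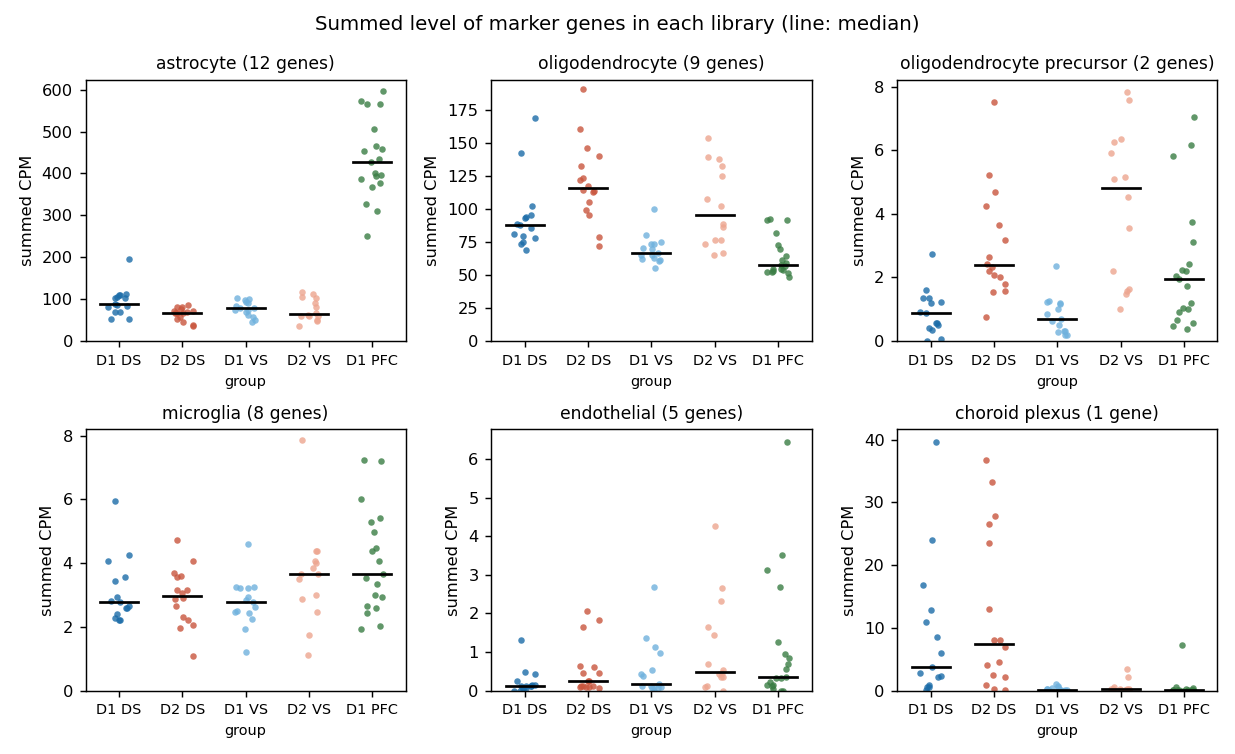
Summed CPM of the markers of 6 cell classes (vertical axes, linear, each from 0) in each library, by group on the horizontal axis (DS dorsal striatum, VS ventral striatum, PFC prefrontal cortex), with a line at the median; mural Pdgfrb is left out. The 19 prefrontal libraries have astrocyte sums between 252 and 596 CPM, above all striatal libraries, and the choroid plexus panel (Ttr) is high in some dorsal libraries of both receptors.

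The 12 astrocyte markers set the prefrontal libraries apart. Their summed level had a lowest value of 252, a median of 428 and a highest of 596 CPM in the D1 prefrontal libraries. In the D1 dorsal libraries these were 52.9, 88.3 and 197 CPM, and in the D1 ventral libraries 46.0, 77.9 and 102 CPM. The prefrontal sums therefore did not overlap those of either D1 striatal group. The D2 libraries lay in the striatal range too, with 35.3, 67.6 and 85.2 CPM in dorsal and 34.7, 63.9 and 117 CPM in ventral striatum. Most reads of the sum are those of Slc1a2 and Aldoc. Without these genes the medians were 14.4 (D1 dorsal), 13.01 (D2 dorsal), 12.1 (D1 ventral), 14.3 (D2 ventral) and 61.9 CPM (D1 prefrontal), and the lowest prefrontal value, 32.1 CPM, lay just under the highest D1 dorsal value of 33.7 CPM.

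Each comparison was fitted with limma on log2(CPM + 0.5) over all genes that reached 1 CPM in as many libraries as the smaller group holds, or more, and a gene is called at a Benjamini-Hochberg adjusted p under 0.05. Differences below are on this log2 scale, which understates changes of low genes, and ± gives the standard error (SE). All 12 astrocyte members were called higher in D1 prefrontal than in D1 dorsal libraries and all 12 also in D1 prefrontal than in D1 ventral libraries. The background was high: 32.3% of 11654 genes tested were called higher in the first comparison (54.8% called in either direction) and 27.7% of 11749 in the second (62.8% in either direction). Both comparisons share the prefrontal libraries. In each, 6 of the 12 (Aqp4, Gfap, Aldh1l1, Gja1, Gjb6 and Mlc1) entered the test through the prefrontal libraries alone, so that they could hardly have differed the other way. The 6 measured at 1 CPM or more in most libraries of both groups had a median difference of 2.18 against dorsal and 2.21 against ventral striatum, where the median of all genes tested was 0.05 and -0.07.

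Slc1a2, the main glutamate transporter of astrocytes, had the most reads of the astrocyte members, although per kilobase of exon its prefrontal mean of 21.9 CPM per kilobase lay under the 25.8 of Aldoc. Slc1a2 had a lowest value of 168, a median of 293 and a highest of 434 CPM in the D1 prefrontal libraries, against 23.2, 63.3 and 145 CPM in D1 dorsal and 19.7, 48.2 and 67.8 CPM in D1 ventral libraries. All 19 prefrontal libraries were above all 30 D1 striatal ones. The difference was 2.25 ± 0.16 (adjusted p = 7.13e-16) against dorsal and 2.57 ± 0.14 (adjusted p = 2.82e-19) against ventral striatum.

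Aldoc encodes the brain isoform of the glycolytic enzyme aldolase. Its lowest, median and highest values were 42.7, 83.7 and 150.4 CPM in D1 prefrontal, 8.12, 18.3 and 24.1 CPM in D1 dorsal and 8.61, 17.03 and 25.2 CPM in D1 ventral libraries. These groups did not overlap either, and the differences were 2.31 ± 0.15 (adjusted p = 1.12e-16) and 2.29 ± 0.14 (adjusted p = 4.97e-18).

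S100b, a calcium-binding protein, and Sox9, a transcription factor of the astrocyte lineage, showed the same separation at lower levels. S100b ran from 6.17 over a median of 11.1 to 13.8 CPM in D1 prefrontal libraries, from 1.21 over 2.20 to 5.67 CPM in D1 dorsal and from 1.02 over 2.06 to 3.31 CPM in D1 ventral libraries. Sox9 ran from 7.40 over 10.5 to 15.99 CPM in D1 prefrontal, from 0.622 over 1.76 to 3.55 CPM in D1 dorsal and from 0.937 over 2.24 to 3.66 CPM in D1 ventral libraries. Every prefrontal library was above every D1 striatal library for both genes. The differences for Sox9 were 2.35 ± 0.15 against dorsal (adjusted p = 2.69e-17) and 2.12 ± 0.11 against ventral striatum (adjusted p = 7.31e-20), and those for S100b were 1.92 ± 0.15 (adjusted p = 9.19e-15) and 2.01 ± 0.12 (adjusted p = 6.62e-19).

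The groups did not overlap for 4 members against dorsal striatum (Slc1a2, Aldoc, S100b and Sox9), where 6.43% of genes tested lay wholly higher in the prefrontal libraries. Against ventral striatum this held for 7 (these and Aldh1l1, Gjb6 and Apoe), where 6.49% of genes did. Of the 7, Aldh1l1 and Gjb6 entered that test through the prefrontal libraries alone, so that they could hardly have differed the other way. Slc1a3, the other glial glutamate transporter, had medians of 11.9 CPM in D1 prefrontal, 2.56 in D1 dorsal and 1.96 in D1 ventral libraries. Its spread in the prefrontal libraries (4.35 to 40.8 CPM) reached into the D1 dorsal and D1 ventral ranges, whose highest values were 6.97 and 5.18 CPM. Apoe, a lipid carrier, had medians of 10.1, 2.77 and 2.28 CPM in the same order. Their differences were 2.12 ± 0.23 and 2.45 ± 0.21 for Slc1a3, and 1.72 ± 0.23 and 1.86 ± 0.16 for Apoe, all 4 called. The smallest difference of the 12 was that of Gfap, the intermediate filament of reactive astrocytes, at 0.84 ± 0.18 and 1.19 ± 0.17; its prefrontal values ran only from 0.391 over 1.51 to 3.20 CPM. Aqp4, the endfoot water channel, reached 1.09 to 8.23 CPM (median 4.20) in prefrontal libraries and differed by 1.40 ± 0.23 and 1.98 ± 0.18.

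**Figure D2:**
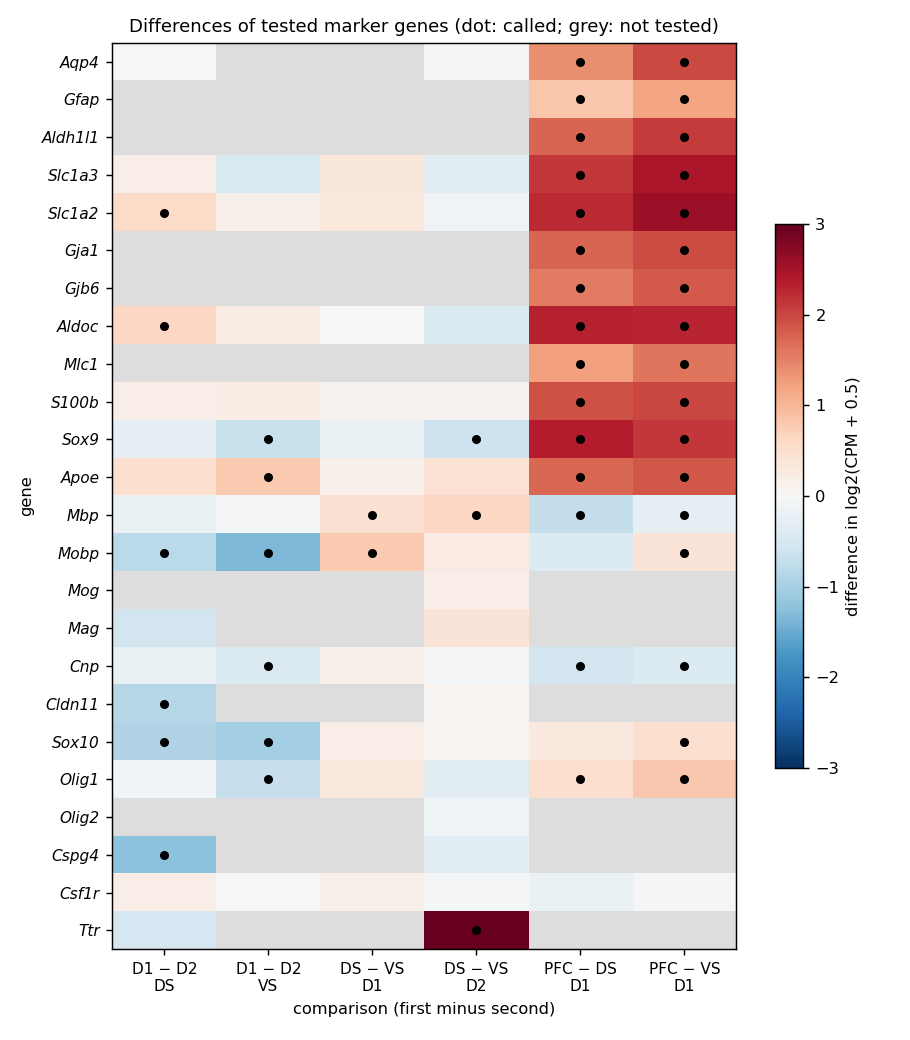
Differences in log2(CPM + 0.5) (colour, first group minus second) of the 24 members tested in at least 1 group comparison (rows) in the 6 comparisons of groups (columns), with a dot where the limma adjusted p is under 0.05 and grey where the gene did not pass the filter. All 12 astrocyte members carry a dot in both prefrontal columns, while oligodendrocyte members go both ways.

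Other astrocyte genes, a list of 10 companion markers that are not members, went mostly the same way. Of 9 tested against dorsal striatum 7 were called higher and 1 lower, and of 9 tested against ventral striatum 8 were higher and 1 lower. Of the higher calls 1 in the first comparison and 3 in the second were genes that entered through the prefrontal libraries alone. Over all genes tested 32.3% and 27.7% were called higher and 22.5% and 35.1% lower in these comparisons. Glul, which turns glutamate into glutamine, had a median of 157 CPM in D1 prefrontal libraries against 40.9 in D1 dorsal and 57.3 in D1 ventral libraries, a difference of 2.04 ± 0.12 and 1.54 ± 0.10. The exception was Slc4a4, a bicarbonate cotransporter, with a median of 15.2 CPM in D1 prefrontal, 107 in D1 dorsal and 52.6 in D1 ventral libraries, a difference of -2.84 ± 0.12 and -1.81 ± 0.10.

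Other values moved with the astrocyte members. Slc17a7, the vesicular glutamate transporter of cortical projection neurons, chosen after seeing earlier values, had a mean of 259 ± 79.2 CPM (SD, n = 19) in D1 prefrontal libraries, 36.7 ± 13.8 (SD, n = 15) in D1 dorsal, 27.3 ± 13.2 (SD, n = 15) in D1 ventral, 3.77 ± 2.87 (SD, n = 16) in D2 dorsal and 5.60 ± 7.29 (SD, n = 14) in D2 ventral libraries. Of the 9 pan-neuronal genes 6 were called higher and 2 lower in the prefrontal libraries in each comparison, with Snap25 differing by 0.88 ± 0.13 and 1.13 ± 0.11. Over all genes tested 32.3% and 27.7% were called higher and 22.5% and 35.1% lower. The median reads in genes were 14.6 M in D1 prefrontal, 16.3 M in D1 dorsal and 16.5 M in D1 ventral libraries. The part of these in the astrocyte result was not tested. Within the EM libraries all 12 astrocyte members were also called higher in both comparisons, where 31.6% and 29.1% of genes were. In each, 6 of the 12 entered through the prefrontal libraries alone and could hardly have gone the other way.

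The stretches of 250 bases before the RefSeq start of Slc1a2 (chr2:102706188-102706437) and S100b (chr10:76253586-76253835), both on the plus strand of GRCm38.p6, are shown because these genes separated the prefrontal libraries without overlap. They were chosen after their values were seen. They are printed 5′ to 3′ and end at the base before the start.
Slc1a2: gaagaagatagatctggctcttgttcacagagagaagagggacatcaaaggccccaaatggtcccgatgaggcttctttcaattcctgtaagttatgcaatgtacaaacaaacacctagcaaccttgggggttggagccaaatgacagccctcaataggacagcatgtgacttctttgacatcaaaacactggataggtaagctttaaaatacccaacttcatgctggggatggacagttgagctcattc
S100b: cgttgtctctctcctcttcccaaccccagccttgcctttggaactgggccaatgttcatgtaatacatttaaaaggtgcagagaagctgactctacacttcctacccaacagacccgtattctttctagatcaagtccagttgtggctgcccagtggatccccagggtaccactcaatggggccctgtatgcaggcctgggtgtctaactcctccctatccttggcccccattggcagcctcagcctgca
Sox9 and Sox10, both members, belong to the SOX family, which binds short sites around the letters ACAAAG or ACAATG. On either strand, neither stretch holds these letters, which says only that they are absent from this window. The RefSeq table has 32851 promoter entries (250 bases before to 50 after a start), of which only the 250 bases before the start were searched. There 25.2% of entries held the letters at least once, as did 1 of 13 entries of the 10 astrocyte members in the table.

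Within the striatum the called differences of astrocyte members between receptors had mixed signs. In dorsal striatum D1 libraries were compared with D2 libraries: 17 members were tested, and 2 were called higher in D1 and 4 lower. The background was 12.8% of 11090 genes called higher and 13% called lower. The 2 higher were both astrocyte members. Slc1a2 ran from 25.3 over 39.9 to 60.3 CPM in D2 dorsal libraries, a difference of 0.56 ± 0.16 (adjusted p = 0.0109), and 8 of 15 D1 dorsal libraries lay above every D2 dorsal library. Aldoc ran from 3.79 over 11.5 to 24.1 CPM there, a difference of 0.63 ± 0.21 (adjusted p = 0.0226). In EM libraries alone the differences were 0.45 (adjusted p = 0.116) and 0.31 (adjusted p = 0.281), neither of which passed. With the percentage of reads that fell in genes as a covariate, Aldoc had an adjusted p of 0.0966.

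In ventral striatum 12 members were tested between D1 and D2 libraries, with 1 called higher in D1 and 5 lower, where 24.1% of 11410 genes were called higher and 23.6% lower. Apoe was the 1 higher member, with medians of 2.28 CPM in D1 ventral and 1.38 CPM in D2 ventral libraries (0.78 ± 0.23, adjusted p = 0.00536). In EM libraries alone its difference was 0.24 (adjusted p = 0.339). Sox9 was lower in D1, with 0.937, 2.24 and 3.66 CPM as lowest, median and highest in D1 ventral and 1.51, 3.29 and 7.84 CPM in D2 ventral libraries (-0.66 ± 0.19, adjusted p = 0.00478; EM libraries alone -1.08, adjusted p = 0.000224). Both calls were lost with that percentage as a covariate (adjusted p = 0.335 for Apoe and 0.0903 for Sox9). It averaged 35.1% in D1 ventral and 37.98% in D2 ventral libraries, and the number of all genes called fell from 5443 to 1218 with it in the model. Of 6 astrocyte companions tested there, 3 were lower in D1 (Glul, Slc7a10 and Slc4a4, by -0.48, -0.78 and -0.44) and 0 higher; in dorsal striatum 0 of 8 were called. In ventral EM libraries alone 6 of 8 astrocyte companions were lower in D1, and so were 2 members, Sox9 and Slc1a3 (-0.78, adjusted p = 0.00953), with 0 higher, where 23.7% of 11626 genes were lower.

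Between the striatal regions 0 of 6 astrocyte members tested were called in D1 libraries and 1 of 7, Sox9, in D2 libraries, where 10.1% and 7.93% of genes were called higher and 24.5% and 20.6% lower. Sox9 had a median of 2.27 CPM in D2 dorsal and 3.29 CPM in D2 ventral libraries, a difference of -0.63 ± 0.21 (adjusted p = 0.0239). The median of all genes in this comparison was -0.12. With a median-ratio scaling, which removes that shift, the difference was -0.53 (adjusted p = 0.0584), and edgeR gave -0.62 (adjusted p = 0.0667). Within the EM libraries Sox9 (-0.95, adjusted p = 0.00862) and Aldoc (-0.53, adjusted p = 0.0243) were lower in D2 dorsal than in D2 ventral libraries, where 15.2% of 11288 genes were lower. In D1 libraries Sox9 differed by -0.23 (adjusted p = 0.332), and the test of the difference between receptors did not call it (0.40, adjusted p = 0.524). In edgeR Slc1a2 was called higher in D1 dorsal than in D1 ventral libraries (0.47, adjusted p = 0.0487).

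The oligodendrocyte markers were ordered otherwise. The summed level of the 9 members had a lowest, median and highest value of 72.2, 116 and 191 CPM in D2 dorsal libraries, 65.5, 95.7 and 154 CPM in D2 ventral, 69.0, 88.2 and 169 CPM in D1 dorsal, 55.3, 66.7 and 100.3 CPM in D1 ventral and 48.2, 57.6 and 92.2 CPM in D1 prefrontal libraries. The medians of the D2 groups were the highest and that of the prefrontal libraries the lowest, with overlap between all neighbours. Most reads of the sum are those of Mbp, Cnp and Mobp. Per kilobase of exon the median member was not lowest in prefrontal libraries, with 0.600 CPM per kilobase against 0.473 in D1 dorsal and 0.338 in D1 ventral libraries. D1 dorsal replicate 2 was the highest D1 dorsal library for both the astrocyte and the oligodendrocyte sum.

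Mobp, a protein of compact myelin, was lower in D1 than in D2 libraries in both striatal regions. In dorsal striatum it ran from 3.40 over a median of 14.4 to 36.7 CPM in D1 and from 12.1 over 25.1 to 53.5 CPM in D2 libraries. The groups overlapped, and the difference was -0.81 ± 0.22 (adjusted p = 0.00518). In ventral striatum it ran from 4.77 over 7.22 to 22.3 CPM in D1 and from 8.09 over 18.1 to 54.6 CPM in D2 libraries, with 6 of 14 D2 libraries above every D1 library. The difference was -1.35 ± 0.23 (adjusted p = 1.58e-05). In EM libraries alone the differences were -1.09 and -1.73, both called.

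Cnp is a phosphodiesterase of the myelin sheath's cytoplasmic channels. It was lower in D1 in ventral striatum, where it ran from 20.3 over 25.1 to 36.1 CPM in D1 and from 27.1 over 35.5 to 47.5 CPM in D2 libraries, a difference of -0.44 ± 0.09 (adjusted p = 0.000172). In dorsal striatum its medians were 28.7 CPM in D1 and 32.6 CPM in D2 libraries, a difference of -0.23 ± 0.11 that was not called (adjusted p = 0.115).

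The stretches of 250 bases before the starts of Mobp (chr9:120149492-120149741) and Cnp (chr11:100574689-100574938), both on the plus strand of RefSeq's GRCm38.p6, are shown 5′ to 3′ because both genes were called in the same direction in ventral striatum. They too were chosen after their values were seen. Capitals mark ACAAAG or ACAATG on either strand (CTTTGT or CATTGT where the match is on the other strand).
Mobp: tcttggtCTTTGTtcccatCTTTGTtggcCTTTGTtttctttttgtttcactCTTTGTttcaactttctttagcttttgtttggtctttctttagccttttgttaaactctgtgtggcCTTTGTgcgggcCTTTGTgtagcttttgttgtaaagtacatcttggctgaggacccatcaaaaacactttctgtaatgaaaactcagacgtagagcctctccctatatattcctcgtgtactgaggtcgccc
Cnp: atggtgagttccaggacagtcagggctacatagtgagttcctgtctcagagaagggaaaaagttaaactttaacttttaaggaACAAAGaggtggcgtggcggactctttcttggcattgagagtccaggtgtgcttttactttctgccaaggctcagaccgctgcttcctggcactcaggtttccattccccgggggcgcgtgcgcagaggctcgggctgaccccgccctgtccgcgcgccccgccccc
Mobp held 6 matches and Cnp held 1, and the same stretch before Cldn11, not shown, held 0. Of the 8 entries of the 6 oligodendrocyte members found in the table, 5 (62.5%) held the letters in the 250 bases before the start, beside 25.2% of all entries. A match is a description of the letters and not evidence of binding.

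The transcription factors of the lineage gave a like picture for Sox10 and a mixed one for Olig1. Sox10, which drives myelin genes, had a lowest, median and highest value of 0.421, 1.11 and 3.80 CPM in D1 dorsal and 0.464, 2.45 and 8.37 CPM in D2 dorsal libraries (-0.90 ± 0.24, adjusted p = 0.00576). In ventral striatum these were 0.300, 1.02 and 2.30 CPM in D1 and 1.64, 2.08 and 4.93 CPM in D2 libraries (-1.02 ± 0.17, adjusted p = 9.06e-06). The groups overlapped in both regions. Olig1 was lower in D1 in ventral striatum, with medians of 1.58 and 3.03 CPM (-0.69 ± 0.20, adjusted p = 0.00559), whereas in dorsal striatum its medians were 1.74 and 2.19 CPM (-0.08 ± 0.20, adjusted p = 0.775).

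**Figure D3:**
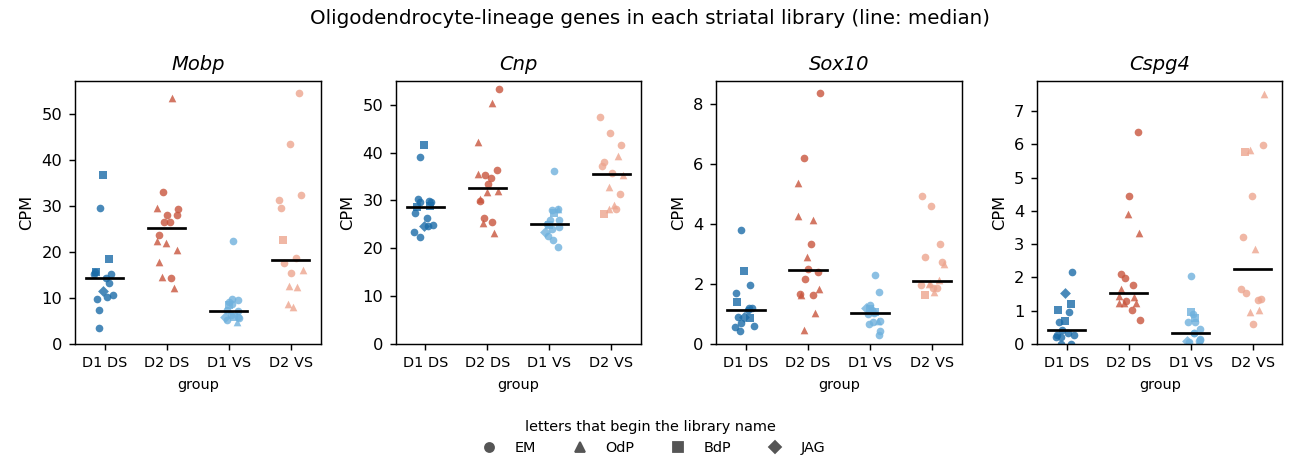
CPM (vertical axes, linear, each from 0) of Mobp, Cnp, Sox10 and Cspg4 in each striatal library by group (DS dorsal, VS ventral striatum), with a line at the median and symbols for the letters that begin the library name. D2 medians lie above D1 medians in every panel and region, the libraries overlap, and within the D2 ventral group the EM libraries hold the highest Mobp values.

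Not all myelin genes did so. Mbp, the main structural protein of compact myelin, had medians of 41.3 CPM in D1 dorsal and 51.3 CPM in D2 dorsal libraries (-0.20 ± 0.12, adjusted p = 0.218) and of 30.3 CPM in D1 ventral and 33.5 CPM in D2 ventral libraries (-0.03 ± 0.13, adjusted p = 0.863). In EM libraries alone the ventral difference was -0.34 (adjusted p = 0.0224). Mag, an adhesion glycoprotein of myelin, passed the filter in dorsal striatum and was not called there (-0.54 ± 0.26, adjusted p = 0.120), nor in ventral striatum, where it was tested in EM libraries alone (-0.61, adjusted p = 0.0561). Cldn11, which forms tight junctions in myelin, and Cspg4, a proteoglycan of precursor cells and pericytes, were called lower in D1 dorsal libraries (-0.86 ± 0.20 and -1.22 ± 0.24), but both entered the test through the D2 libraries alone. Cldn11 ran from 0.0845 over 0.775 to 3.14 CPM in D1 dorsal and from 0.784 over 1.70 to 3.11 CPM in D2 dorsal libraries. Cspg4 ran from 0 over 0.401 to 2.15 CPM and from 0.718 over 1.54 to 6.37 CPM.

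Further oligodendrocyte genes outside the members went the same way. Of a companion list of 9 in the table, 5 of 6 tested in dorsal striatum and 5 of 5 tested in ventral striatum were called lower in D1, and none was higher, where 13% and 23.6% of genes were lower. Ugt8a, which makes the myelin lipid galactosylceramide, had medians of 1.05 CPM in D1 dorsal, 2.65 in D2 dorsal, 0.611 in D1 ventral and 4.05 CPM in D2 ventral libraries. It differed by -1.18 ± 0.24 in dorsal and -1.94 ± 0.16 in ventral striatum, where it entered through the D2 libraries alone and the other 4 tested did not. Mal, a lipid-raft protein of myelin, differed by -0.85 ± 0.22 and -1.48 ± 0.18. Of the precursor companions only Vcan was tested, and it was lower in dorsal (-0.78 ± 0.15) and in ventral striatum (-0.96 ± 0.17), where it entered through the D2 libraries alone.

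The letters of the library names and the percentage of reads in genes also differ between the receptors. In EM libraries alone 5 members were called lower in D1 and 0 higher in dorsal striatum, where 5.78% of genes were called lower and 6.48% higher. In ventral striatum 11 were lower and 0 higher, where 23.7% of genes were lower and 16.4% higher. These 11 were Mobp, Cnp, Mbp, Mog, Cldn11, Sox10, Olig1, Olig2, Cspg4, Slc1a3 and Sox9. Of them 5 (Mog, Cldn11, Sox10, Olig2 and Cspg4) entered through the D2 libraries alone, as did 3 of the 5 in dorsal striatum (Mog, Cldn11 and Cspg4), and these could hardly have been called higher in D1. With the percentage of reads in genes as a covariate, Mobp, Cnp, Sox10 and Olig1 were still called lower in ventral striatum. Depth differed too, with medians of 16.3 M and 16.5 M reads in genes in the D1 dorsal and D1 ventral libraries and of 20.3 M and 21.8 M in the D2 dorsal and D2 ventral libraries. Of the 9 pan-neuronal genes 4 were higher in D1 and 0 lower in dorsal striatum (12.8% and 13% of genes; EM libraries alone 2 and 0). In ventral striatum 3 were higher and 2 lower (24.1% and 23.6% of genes; EM libraries alone 4 and 0). The part of these differences in the receptor result was not tested. No call of a member between D1 and D2 was lost by leaving out any library.

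Whether the receptor difference itself differed between dorsal and ventral striatum was tested as an interaction. Of 20 members 0 were called by limma and 0 by edgeR, where 2.64% of 11873 genes were called by limma. At an unadjusted p under 0.05 there were 2 of the 20 members in limma, where 14.9% of all genes were: Olig1 (0.61 ± 0.29, p = 0.0384, adjusted p = 0.296) and Slc1a3 (0.65 ± 0.30, p = 0.0351, adjusted p = 0.287). The larger ventral differences of Mobp and Cnp are therefore not shown to differ from the dorsal ones.

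Between regions Mbp had higher levels in the dorsal than in the ventral libraries of both receptors. Its D1 dorsal libraries ran from 25.0 over 41.3 to 76.8 CPM and its D1 ventral libraries from 26.2 over 30.3 to 37.2 CPM, and 11 of 15 dorsal libraries lay above every ventral one. The difference was 0.45 ± 0.10 (adjusted p = 0.00061) in D1 and 0.63 ± 0.14 (adjusted p = 0.000955) in D2 libraries, where the values ran from 31.5 over 51.3 to 73.6 CPM in dorsal and from 17.1 over 33.5 to 52.6 CPM in ventral striatum. In the D2 EM libraries alone the difference was 0.42 (adjusted p = 0.0599). Of the 12 members tested in D1 libraries, Mobp was the other called (0.79 ± 0.22, adjusted p = 0.0051; EM libraries alone 0.51, adjusted p = 0.123), so that 2 were higher and 0 lower, where 10.1% of 11332 genes were called higher and 24.5% lower. Of 19 tested in D2 libraries, 2 were higher (Mbp and Ttr) and 1 lower (Sox9), where 7.93% of 11187 genes were higher and 20.6% lower. Over all genes the median difference was -0.12 in both comparisons, and with median-ratio scaling it was -0.01 in D1 and -0.00 in D2 libraries; the calls of Mbp and Mobp held under that scaling. Of the oligodendrocyte companions 3 of 4 tested in D1 libraries were higher in dorsal striatum, Mal and Ermn among them, and 1 was lower (Tspan2), and 0 of 6 tested in D2 libraries were called. In D1 EM libraries alone 0 of 4 were higher and Tspan2 was lower, where 9.48% of 11375 genes were called higher and 21.9% lower; Mal had 0.47 (adjusted p = 0.0944) and Ermn 0.55 (adjusted p = 0.0899).

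In the prefrontal libraries the oligodendrocyte members split. Mbp was lower than in D1 dorsal libraries, with a lowest, median and highest value of 15.4, 25.7 and 37.2 CPM (-0.71 ± 0.12, adjusted p = 1.18e-06), and so was Cnp, with 15.4, 17.6 and 26.5 CPM (-0.56 ± 0.09, adjusted p = 1e-06). Olig1, with a prefrontal median of 2.97 CPM, was higher than in D1 dorsal (0.51 ± 0.18, adjusted p = 0.0177) and D1 ventral libraries (0.80 ± 0.15, adjusted p = 1.22e-05). The first of these calls was lost in edgeR (0.47, adjusted p = 0.0827). Olig2, a transcription factor of the same family, was tested against dorsal striatum only with EM libraries alone, where it entered through the prefrontal libraries and was called higher (0.94, adjusted p = 0.000201). Against D1 ventral libraries Cnp was lower (-0.41 ± 0.08), Sox10 higher (0.47 ± 0.18, adjusted p = 0.0235), and Mobp higher by a narrow margin (0.39 ± 0.17, adjusted p = 0.0494) that was lost in 21 of 34 fits without 1 library. Mbp was lower there by limma (-0.26 ± 0.09, adjusted p = 0.0103) but not with median-ratio scaling (-0.18, adjusted p = 0.0835). In all, limma called 13 of 18 tested members up and 2 down relative to dorsal striatum, beside 32.3% and 22.5% of genes tested. Relative to ventral striatum it called 15 of 18 up and 2 down, beside 27.7% and 35.1%. In each comparison 6 of the upward calls, all for astrocyte members, entered through the prefrontal libraries alone. These 6 could hardly have been called down. Among companions tested against dorsal striatum Tspan2 was higher (0.79 ± 0.14), and Mal (-1.02 ± 0.27) and Ermn (-1.05 ± 0.31), both myelin-associated, were lower. Among EM libraries Mal (-0.54, adjusted p = 0.0804) and Ermn (-0.60, adjusted p = 0.152) were not called, and of 5 companions tested there 2 were higher and 0 lower (20.9% of 11762 genes were lower).

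Apart from Csf1r, and from Aif1 in prefrontal libraries, the microglial, endothelial and mural markers were mostly near the limit of counting. The 8 microglial members summed to medians of 2.78, 2.98, 2.78, 3.66 and 3.65 CPM in the D1 dorsal, D2 dorsal, D1 ventral, D2 ventral and D1 prefrontal libraries. The largest part in each group was Csf1r, the growth factor receptor of macrophages, with medians of 2.08, 1.98, 1.9004, 2.18 and 1.61 CPM. It was the 1 microglial member that passed the filter, and its differences in the 6 comparisons lay between -0.21 and 0.19, none called. Aif1, a calcium-binding protein of macrophages, was the next in prefrontal libraries, with a mean of 1.10 ± 0.507 CPM (SD, n = 19) against 0.362 ± 0.288 (SD, n = 15) in D1 dorsal and 0.481 ± 0.153 (SD, n = 15) in D1 ventral libraries. Without the filter, 3 of the 8 (Aif1, the chemokine receptor Cx3cr1 and the purine receptor P2ry12) were called higher in D1 prefrontal than in D1 dorsal libraries (26% of 19963 genes) and the same 3 higher than in D1 ventral libraries (22.7% of 20113 genes). Between D1 and D2 ventral libraries Cx3cr1 and P2ry12 were then lower in D1 (14.5% of 19655 genes) and Aif1 higher (15.4%). Cx3cr1 and P2ry12 averaged under 1 CPM in all 5 groups. The complement subunit C1qa, a defining microglial transcript, was without a read in 14 of 15, 12 of 16, 12 of 15, 12 of 14 and 15 of 19 libraries of the groups in that order. Tmem119 was without a read in 8, 8, 10, 7 and 11 of them. A count of 0 allows up to 3 reads, which is 0.0373 to 0.140 CPM depending on the library.

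The 5 endothelial members summed to medians of 0.128, 0.240, 0.181, 0.493 and 0.340 CPM. Cldn5, the tight junction protein of the blood-brain barrier, was without a read in 12 of 15, 12 of 16, 12 of 15, 10 of 14 and 15 of 19 libraries, and Pecam1, an adhesion molecule of endothelium, in 10, 13, 11, 10 and 8. Flt1, a receptor for vascular growth factor, stood out in single libraries, at up to 4.19 CPM in a D1 prefrontal and 3.72 CPM in a D2 ventral library, beside medians of 0.310 and 0.264 CPM. The mural marker Pdgfrb had a read in all 19 prefrontal libraries, at 0.0192 to 1.18 CPM with a median of 0.392 CPM, against medians of 0.0425 CPM in D1 dorsal and 0.0194 CPM in D1 ventral libraries. None of these 6 genes passed the filter, and without it Pdgfrb (0.53) and Flt1 (0.84) were also called higher in D1 prefrontal than in D1 dorsal libraries (again beside 26% of 19963 genes). Against D1 ventral libraries Pdgfrb was called (0.66, beside 22.7% of genes) and 0 of the 5 endothelial members were. Kdr, another receptor for vascular growth factor, was then called lower in D1 dorsal than in D1 ventral libraries (-0.25, adjusted p = 0.0475, beside 16.1% of 19546 genes).

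Companion genes of these classes went both ways in the prefrontal libraries. Of 2 microglial companions tested, 1 was called higher and 1 lower in each comparison. Against ventral striatum the higher one entered through the prefrontal libraries alone. Cd68, a lysosomal protein used as a marker of macrophages, had a median of 5.04 CPM in D1 dorsal and 5.73 CPM in D1 ventral libraries but 0.453 CPM in D1 prefrontal libraries (-2.56 ± 0.15 and -2.79 ± 0.13). The choroid plexus gene Clic6, a chloride channel protein, had 12.2 CPM in D1 ventral and 0.0785 CPM in D1 prefrontal libraries (-4.39 ± 0.10), while Ttr was mostly near 0 in both. Kl was lower than in ventral libraries too (-2.28 ± 0.13). Enpp2, which oligodendrocytes also make, was higher, with a median of 28.5 CPM against 8.87 in D1 dorsal and 2.96 CPM in D1 ventral libraries (1.67 ± 0.17 and 2.91 ± 0.14). Rgs5, a pericyte gene, was higher in D1 prefrontal libraries, with a median of 8.54 CPM against 1.41 in D1 dorsal and 1.35 CPM in D1 ventral libraries (2.11 ± 0.19 and 2.13 ± 0.16). Of 5 ependymal companions only Rarres2, a secreted chemoattractant, was tested between groups, and it was lower in D1 prefrontal libraries (-0.52 ± 0.12 and -0.64 ± 0.12). Cd68, Clic6, Kl and Rarres2 all entered these tests through the striatal libraries alone, so that they could hardly have been called the other way, whereas Rgs5 and Enpp2 reached 1 CPM in most libraries of each group. Of 5 fibroblast companions 0 were tested.

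Ttr, which encodes transthyretin, spread widely between the libraries of a dorsal group. In D1 dorsal libraries it had a lowest value of 0.146, a median of 3.79 and a highest of 39.6 CPM, and in D2 dorsal libraries 0.112, 7.49 and 36.8 CPM. In D1 ventral libraries it ran from 0 over 0.129 to 1.09 CPM, in D2 ventral from 0 over 0.218 to 3.47 CPM and in D1 prefrontal from 0 over 0.0196 to 7.26 CPM. Levels were above those of every ventral library in 8 of 15 D1 dorsal, 11 of 16 D2 dorsal and 1 of 19 D1 prefrontal libraries, so that the dorsal groups overlap the ventral ones at their low end. No read was found in 4 of 15 D1 ventral, 1 of 14 D2 ventral and 8 of 19 D1 prefrontal libraries.

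The dorsal minus ventral difference of Ttr in D2 libraries was 2.98 ± 0.50 (adjusted p = 1.51e-05), and it entered that test through the dorsal libraries alone. In EM libraries alone it was 3.50, and edgeR, which works on counts without the added 0.5, gave 4.60. In D1 libraries Ttr passed the filter in too few libraries; without the filter its dorsal minus ventral difference was 2.79 and was called, as were 6.74% of 19546 genes in that direction. Between D1 and D2 dorsal libraries it differed by -0.49 ± 0.60 (adjusted p = 0.568). The choroid plexus companions tested between the regions did not all go with Ttr. In D2 libraries 0 of 3 were called higher in dorsal striatum and 2 lower, Kl (-0.94 ± 0.19) and Clic6 (-0.42 ± 0.12, not called in EM libraries alone or in edgeR). In D1 libraries Enpp2 was higher (1.24 ± 0.18) and the same 2 were lower. These were Kl (-1.36 ± 0.18), which entered through the ventral libraries alone, and Clic6 (-0.87 ± 0.12). Downward calls were also the commoner ones among all genes tested, at 20.6% (D2) and 24.5% (D1) beside 7.93% and 10.1% upward. The median gene differed by -0.12 in both receptors.

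**Figure D4:**
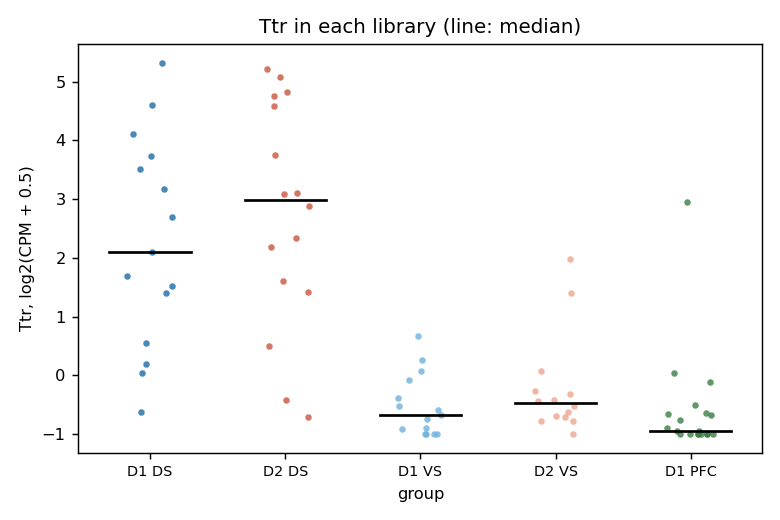
Ttr in each library as log2(CPM + 0.5) (vertical axis; a library without a read is at -1) by group (DS dorsal striatum, VS ventral striatum, PFC prefrontal cortex), with a line at the median. Dorsal libraries of both receptors spread over most of the axis, while 12 of 14 D2 ventral, 14 of 15 D1 ventral and 18 of 19 prefrontal libraries lie under 1 CPM.

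Companion genes of the choroid plexus, a list of 10, followed Ttr unevenly in the dorsal libraries. Enpp2, a secreted lysophospholipase, followed Ttr across libraries with Pearson's r of 0.64 in D1 dorsal (n = 15, Spearman's rho 0.69) and 0.79 in D2 dorsal libraries (n = 16, rho 0.84). Leaving out the 2 libraries farthest from the median left r at 0.76 and 0.71. Prlr, the prolactin receptor, had r of 0.57 and 0.54, and Kl, a membrane protein of the plexus, 0.61 and 0.10. Clic6, with reads in all dorsal libraries and up to 15.6 CPM, had r of 0.18 (rho -0.07) and 0.34 (rho 0.41). Kcnj13, a potassium channel, had 0.03 and 0.43, and Otx2, a transcription factor, 0.05 and 0.28. Slc4a5 and Sostdc1 lay between, with 0.54 and 0.39 and with 0.40 and 0.42. Folr1 and Aqp1, a folate receptor and a water channel that define the plexus epithelium, were without a read in 12 and 13 of 15 D1 dorsal and in 14 and 13 of 16 D2 dorsal libraries. These values share a library's depth and scaling and are given as a description.

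To ask whether markers vary together within a group, the group mean of log2(CPM + 0.5) was taken from each gene and the class level was the mean over its members. Astrocyte and oligodendrocyte levels had Pearson's r of 0.66 and Spearman's rho of 0.66 over the 79 libraries, and 0.63 without the 2 libraries farthest from the median. By group r was 0.69 in D1 dorsal (n = 15), 0.86 in D2 dorsal (n = 16), 0.13 in D1 ventral (n = 15), 0.88 in D2 ventral (n = 14) and 0.47 in D1 prefrontal libraries (n = 19). Within EM libraries it was 0.46 (n = 53) and within OdP libraries 0.92 (n = 13, without the 1 D1 ventral library of that code, which has no other to be centred on). The points share the scaling of a library, its name code and its dissection, and the pan-neuronal level had r of 0.32 with the astrocyte and 0.07 with the oligodendrocyte level. Reads in genes had r of -0.19 with the astrocyte level over all libraries and -0.70 in the D2 ventral libraries (n = 14). The part of these in the covariation was not tested.

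**Figure D5:**
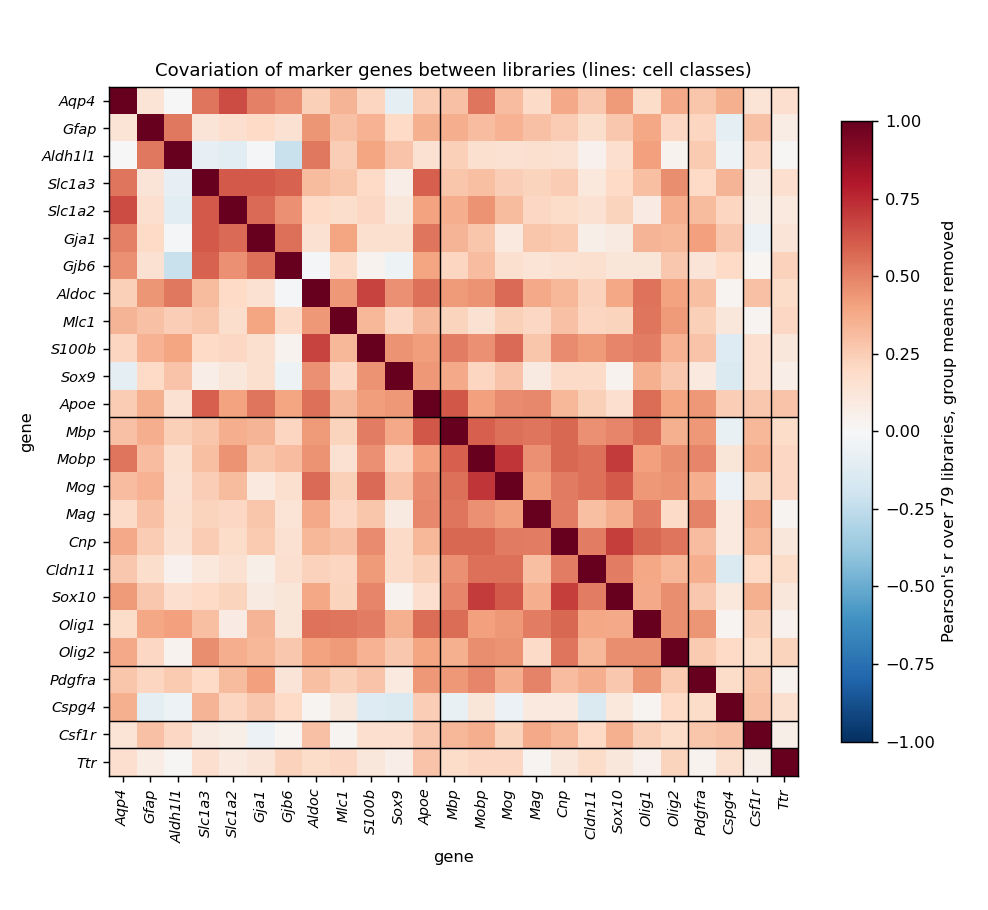
Pearson's r (colour) between the 25 members tested in any comparison, over 79 libraries with group means of log2(CPM + 0.5) removed, with lines between cell classes. The block of 9 oligodendrocyte members is the most even, with all 36 pairs above 0, and the astrocyte block holds pairs on both sides of 0.

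Gene by gene, the oligodendrocyte members were the most coherent class. Their 36 pairs had a median r of 0.51 (0.19 to 0.71), all above 0. The 66 astrocyte pairs had a median of 0.29 (-0.23 to 0.67), with 59 above 0, and the 108 pairs of an astrocyte with an oligodendrocyte member had 0.28 (0.03 to 0.62), with all above 0. By group the order of these medians varied: astrocyte pairs had 0.40 against 0.22 across the classes in D1 prefrontal and 0.12 against 0.04 in D1 ventral libraries, but 0.24 against 0.30 in D1 dorsal, 0.24 against 0.40 in D2 dorsal and 0.36 against 0.44 in D2 ventral libraries.

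The oligodendrocyte and microglial levels had r of 0.77 over all libraries, but it rested on few libraries in D1 striatum, where r fell from 0.70 to -0.00 in D1 dorsal and from 0.66 to 0.04 in D1 ventral libraries without the 2 farthest. In D1 prefrontal libraries it was 0.93 and 0.92 without them. The microglial counts are too sparse to read more from this.

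Among 8104 other genes averaging 5 CPM or more, those most like the astrocyte level were Ndrg2 (r = 0.66), Cst3 (0.66), Plekhb1 (0.65), Scd2 (0.64) and Fam107a (0.63), over the 79 libraries with group means removed. Those most like the oligodendrocyte level were Tmem88b (0.80), Gatm (0.79), Plekhb1 (0.72), Gab1 (0.68) and Sept4 (0.62). Plekhb1 was on both lists. For Ttr the highest was Pdxdc1 at 0.41, and for the precursor level Ncoa3 at 0.52.

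The letters that begin library names can be compared where a group holds both EM and OdP in number. In D2 ventral striatum (8 EM and 5 OdP libraries) 8 of 19 members tested were called higher in EM and 0 lower, where 16.2% of 11619 genes were higher and 5.89% lower. Aldoc ran from 17.2 over 20.4 to 31.9 CPM in EM and from 6.74 over 8.62 to 9.75 CPM in OdP libraries, without overlap (6.77% of genes lay wholly higher in EM), a difference of 1.28 ± 0.17 (adjusted p = 3.26e-05). Mobp ran from 15.4 over 30.4 to 54.6 CPM and from 8.09 over 12.4 to 16.05 CPM (1.28 ± 0.27, adjusted p = 0.00213). The others were S100b, Sox9, Mbp and Olig1, and Apoe and Pdgfra, which entered through the EM libraries alone. The calls of S100b (without D2 ventral replicate 10 or 14, adjusted p up to 0.0692), Olig1 (without 12 or 13, up to 0.0795) and Sox9 (without 12, 0.0567) were lost by leaving out 1 library, and Pdgfra passed the filter in 8 of 13 such fits. In D2 dorsal striatum (8 EM and 8 OdP libraries) 2 of 18 members were higher and 0 lower, where 18% of 10939 genes were higher and 12.2% lower. These were Aldoc (1.01 ± 0.21, adjusted p = 0.00142) and Apoe (0.82 ± 0.30, adjusted p = 0.0411, lost in 11 of 16 fits without 1 library). The median of all genes was 0.14 in D2 ventral striatum and 0.04 in D2 dorsal striatum. What the codes stand for is not stated, so that a batch and any other difference between these libraries cannot be told apart.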

How the data were processed

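Ribosome-bound mRNA of 79 pools was measured, and the authors deposited 1 table of CPM for 25899 gene symbols; 0 of its columns lacked a sample. Per the submitters' processing notes, Trim Galore 0.4.2, cutadapt 1.9.1, FastQC, HISAT2 and the build GRCm38 were used; the counting program, annotation and filters are not given in the sources used here. The deposited CPM were whole multiples of 1 read, and whole reads were recovered for 100% of values (within 0.01 reads). Reads in genes were 31.0 to 40.2% of the total the authors scaled to, so CPM also moves with that share. The cDNA was amplified without stated molecular identifiers, so counts of 0 and depth cover counting error only.

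Groups came from the labelled receptor and region; replicate numbers follow accession order and pair nothing. limma 3.58.1 in R 4.3.3 (lmFit, eBayes with a trend, two-sided, only the compared groups) was run on log2(CPM + 0.5) with a filter of 1 CPM, and Benjamini-Hochberg adjustment ran over all genes tested. A member is said to enter through 1 group alone where under 50% of the other group's libraries reached 1 CPM. Alternatives were a pseudocount of 1, no filter, CPM rescaled to reads in genes, median-ratio scaling, EM libraries only, the name code or the percentage of reads in genes as a covariate, each library left out, and edgeR 4.0.16 (quasi-likelihood, TMM) on the recovered whole reads. For D1 against D2 edgeR called 2966 genes in dorsal and 5370 in ventral striatum (limma 2871 and 5443). Both fits were tested on simulated data. All 38 members and listed companion genes may be named, as well as the 5 genes most like each class level; names beyond that are said to be chosen after seeing values. Some companion genes are counted in their lists but not reported here by name. The members, lists and tests were chosen with earlier results of these data known. Promoter sequences are RefSeq's (27 of 38 members had an entry).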

Additional observations from a re-analysis of the deposited data

How the results depend on the processing

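The 59 differences of single members that limma called were set against 442 alternatives. These gave the same side of the threshold in 419, the same direction without the call in 23 and a reversed direction in 0. Calls gained only under an alternative do not enter these numbers. Counts of called members moved as follows. Without a filter they were 15 for D1 minus D2 in ventral striatum (2 higher, 13 lower; 6 with the filter), 5 for dorsal minus ventral striatum in D1 (2 with it), 24 for prefrontal cortex minus dorsal striatum (15 with it) and 1 for EM minus OdP in D2 dorsal striatum (2 with it), with more genes tested. With EM libraries only they were 11 for D1 minus D2 in ventral striatum and 1 for dorsal minus ventral striatum in D1. In edgeR on whole reads they were 5 for dorsal minus ventral striatum in D1 (Slc1a2, Cnp and Olig1 added) and 1 for EM minus OdP in D2 dorsal striatum, and median-ratio scaling gave 1 there as well. Over all genes the calls without a filter were 5882 of 19655, 4455 of 19546, 8359 of 19963 and 3021 of 18302 in the same order. With EM libraries only 4661 of 11626 and 3565 of 11375 genes were called, and in edgeR 3245 of 11332 and 3348 of 10939. Median-ratio scaling called 3474 of 10991 genes. With the name code as a covariate 3 member calls were lost: Slc1a2 (0.45, adjusted p = 0.155) and Aldoc (0.31, adjusted p = 0.330) for D1 minus D2 in dorsal striatum, and Mobp for prefrontal cortex minus ventral striatum (0.34, adjusted p = 0.0534). For those counts not set by the filter or by fewer libraries the cause was not tested.

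Leaving out 1 library at a time gave 6 to 7 members for D1 minus D2 in dorsal and in ventral striatum, 2 to 2 and 3 to 3 for dorsal minus ventral striatum in D1 and D2, 15 to 17 and 16 to 17 for prefrontal cortex minus dorsal and ventral striatum, 0 to 0 for the interaction, and 1 to 4 and 6 to 10 for EM minus OdP in D2 dorsal and ventral striatum. The split of all genes into higher and lower calls moved by over 10 percentage points in some settings: for D1 minus D2 in ventral striatum 3698 and 1895 when scaled to reads in genes (2751 and 2692 otherwise); with median-ratio scaling 1678 and 1600 for dorsal minus ventral striatum in D1 (1144 and 2774), 1353 and 1373 in D2 (887 and 2302), 1563 and 1911 for EM minus OdP in D2 dorsal (1973 and 1333) and 1202 and 1412 in D2 ventral striatum (1884 and 684); and 3119 and 3472 in edgeR for prefrontal cortex minus dorsal striatum (3766 and 2622). In edgeR the split was also 1745 and 1500 for dorsal minus ventral striatum in D1 and 1357 and 1325 in D2. For EM minus OdP in D2 ventral striatum edgeR gave 1279 and 1162. Scaled to reads in genes, D1 minus D2 in dorsal striatum had 1709 and 1154 (1424 and 1447 otherwise). The interaction had 191 and 119 (229 and 84 otherwise). No paired fit was made: groups share at most 1 library number in the labels, and although consecutive numbers often run through the regions, the labels do not tie them to the same mice. The filter kept 13 of 38 members out of every test, and values of these rest on few reads.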
